A study of Arabidopsis thaliana with 30 samples.

Results

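The genes described here are those whose transcripts were lower in leaves labelled rbohD than in wild-type (WT) leaves of Arabidopsis thaliana in each of 3 conditions. They were chosen by level: a gene had to have a mean of at least 5 FPKM over all 30 libraries (FPKM, fragments per kilobase of gene for each M mapped fragments), and the mean of log2(FPKM + 1) had to be at least 0.4 lower in rbohD than in WT at 0 min, in controls at 60 min and in waterlogged leaves at 60 min. Of 32820 genes, 12545 reached that level, and 150 of these (1.2%) met all 3 limits. The mirrored rule, for genes higher in rbohD throughout, was met by 133. Because the rule used the rbohD and WT values themselves, the differences between the genotypes are given below as descriptions, without a test.

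The study followed systemic leaves, which lie away from the flooded roots, after waterlogging. It used plants labelled rbohD and WT plants of accession Col-0, with 3 libraries in each of 10 groups. Leaves labelled rbohD were taken untreated at 0 min, and waterlogged or as controls at 60 min. WT leaves were taken untreated at 0 min, and waterlogged or as controls at 10, 30 and 60 min. Per the series description each genotype and time point had 3 repeats made up from 15 plants, so a library is a pool of plants. The labels do not say whether the repeats were grown separately, so the spread between libraries may be partly technical. The allele of rbohD is not given in the sources used here.

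RBOHD encodes a respiratory burst oxidase of the plasma membrane that makes superoxide outside the cell. It is known for amplifying the ROS wave, a signal that passes from a stressed tissue to distant leaves, cell by cell. Leaf cells also make reactive oxygen in the chloroplast, where superoxide dismutases remove it and where free pigment precursors and excess light energy in the antenna can add to it. Such chloroplast genes, together with genes of cell wall extension, are among the 150.

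The level of the targeted gene did not follow the label in every condition. RBOHD itself (AT5G47910, chromosome 5, 19397041 to 19402061) stood at 19.99, 21.3 and 21.7 FPKM in the 0 min libraries labelled rbohD, against 17.5, 17.1 and 17.62 FPKM in WT at 0 min. In controls at 60 min it was 12.9, 13.1 and 12.4 FPKM in the libraries labelled rbohD and 21.2, 24.1 and 24.96 FPKM in WT. In waterlogged leaves at 60 min it was 13.02, 11.9 and 15.7 FPKM in the libraries labelled rbohD and 13.3, 13.5 and 13.8 FPKM in WT. The gene was thus higher, lower and overlapping in turn, and "rbohD" below always means the libraries with that label. Gene-level FPKM does not show whether a transcript is intact.

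The libraries also fell into a set of low and a set of high rRNA. A nuclear gene of the 18S rRNA, AT3G41768, was listed at 4050 to 5754 FPKM in 10 libraries, namely all 9 labelled rbohD and replicate 3 of the waterlogged WT leaves at 60 min. In the other 20 libraries, all WT, it stood at 1473 to 2640 FPKM. The genotype and this split can therefore be told apart only through that 1 WT library, which is used as such further down. The confidence bounds in the files imply 10.9 to 13.3 M fragments per library.

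The promoters of 3 genes are shown first, because these genes are among the 25 members with the most negative mean difference and carry the evening element, AAATATCT. This is a short sequence to which clock transcription factors of the MYB-like family are known to bind. The window searched ran from 250 bases before the annotated start of a gene to 50 bases after it, on both strands, in the TAIR10.1 sequence of RefSeq; the lines below print the 250 bases before the start, 5′ to 3′ along the gene's strand, with the element in capitals (AGATATTT is the same element on the other strand).
BT2 (chr3:17910739-17910988, minus strand): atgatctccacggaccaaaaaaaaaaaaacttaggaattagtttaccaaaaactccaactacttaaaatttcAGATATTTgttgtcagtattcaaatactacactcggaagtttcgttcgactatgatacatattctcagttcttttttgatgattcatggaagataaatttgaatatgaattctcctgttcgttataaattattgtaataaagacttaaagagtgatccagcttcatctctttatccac
PORB (chr4:13725296-13725545, plus strand): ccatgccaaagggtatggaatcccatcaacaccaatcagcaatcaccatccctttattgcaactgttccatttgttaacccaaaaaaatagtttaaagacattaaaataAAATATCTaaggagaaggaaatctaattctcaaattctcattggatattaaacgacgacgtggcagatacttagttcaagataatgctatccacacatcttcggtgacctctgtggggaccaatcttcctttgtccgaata
MYBL2 (chr1:26796533-26796782, minus strand): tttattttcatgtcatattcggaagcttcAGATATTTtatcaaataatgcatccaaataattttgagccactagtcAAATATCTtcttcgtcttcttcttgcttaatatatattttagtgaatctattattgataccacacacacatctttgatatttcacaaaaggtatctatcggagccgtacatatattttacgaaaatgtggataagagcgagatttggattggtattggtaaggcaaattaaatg

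BT2 encodes a BTB and TAZ domain scaffold protein known to respond to sugar and nitrate, PORB the protochlorophyllide oxidoreductase of green leaves and MYBL2 a MYB-related repressor of anthocyanin synthesis. The element begins 178 bases before the start in BT2 and 141 before it in PORB. MYBL2 has it on both strands, at 174 and 221 bases before its start. Of the 140 members with a window, 19 (13.6%) hold the element, against 5.87% of all 12295 windows of genes of at least 5 FPKM. Other sequences searched were less common in the members than in all windows, or about as common. The site II letters TGGGCC stood in 7.86% of members and 21.6% of all windows, and the telo-box AAACCCTA in 3.57% and 5.88%. The W-box letters TTGACC stood in 5.71% of members and 14.0% of all windows, and TTGACT in 12.1% and 20.8%. The G-box CACGTG stood in 7.14% and 9.39%, and the as-1 core TGACG in 25% and 23.98%. No test was made of these shares, and none of the longer sequences contains a shorter one. The median GC content was 30.7% in members and 32% in all windows. Whether base composition has a part in the shares was not tested. The 7 clock genes of a fixed list that reached 5 FPKM, none of them a member, had a median difference, rbohD minus WT, of 0.35 at 0 min, 0.996 in controls at 60 min and 0.01 in waterlogged leaves. Below 0 were 2, 2 and 3 of the 7 in the same order, so the list was mixed.

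The 150 genes were expressed at very different levels, with means over all libraries between 5.03 and 2847 FPKM. Their median difference, rbohD minus WT on the log2(FPKM + 1) scale, was -0.71 at 0 min, -0.76 in controls at 60 min and -0.63 in waterlogged leaves at 60 min, where the 12545 genes of at least 5 FPKM had medians of -0.01, 0.02 and -0.03. The limit was met by 5.88%, 10.6% and 6.09% of those genes in the same 3 conditions. The difference was most negative in the controls at 60 min for 70 members, at 0 min for 43 and in waterlogged leaves for 37. HEMA1, LAX3 and UGP3 lie just inside the rule, with a weakest difference of -0.4003, -0.402 and -0.405. AT5G65660, GATA4 and AT1G15740 lie just outside it, at -0.398, -0.396 and -0.396.

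**Figure D1:**
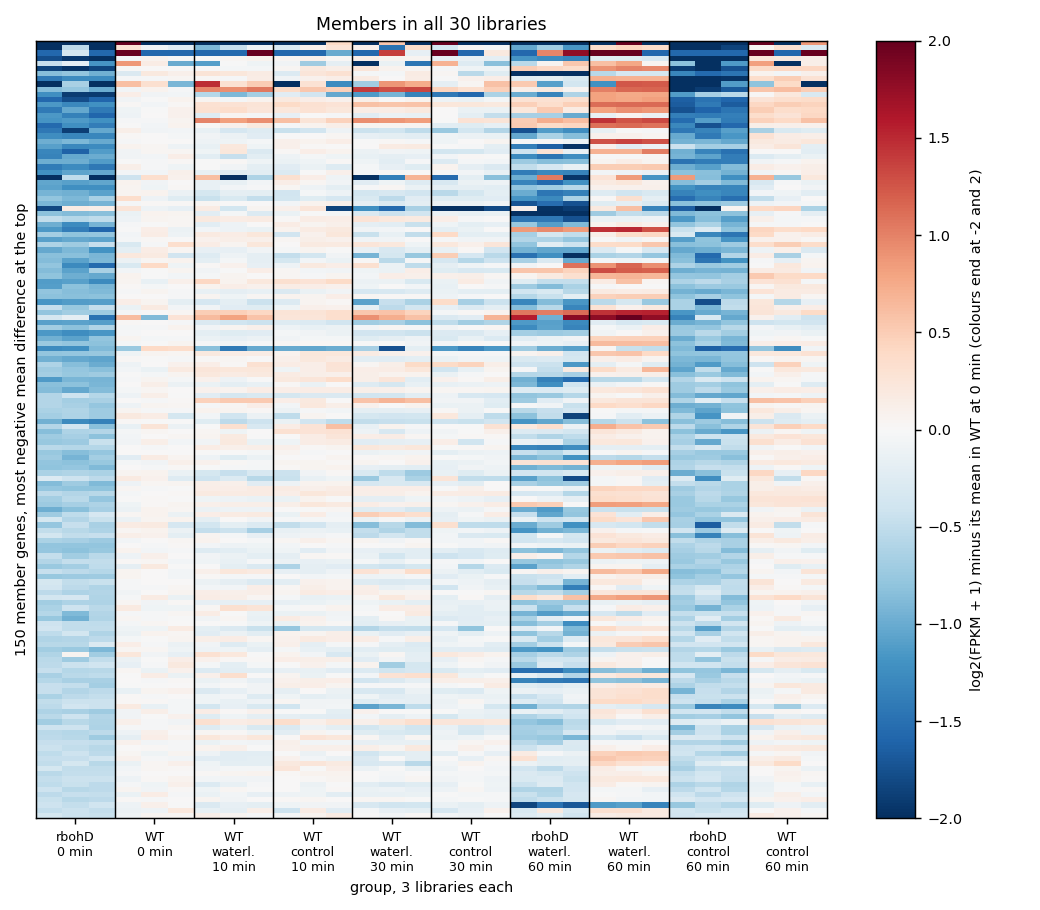
Level of the 150 members (rows, most negative mean difference at the top) in all 30 libraries (columns, 3 per group), as log2(FPKM + 1) minus the mean of WT at 0 min. The 9 columns of the rbohD groups are mostly blue, with medians over members from -0.73 to -0.49, while medians of the 21 WT columns lie between -0.12 and 0.13; a few rows near the top change from library to library within WT.

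Libraries of the genotypes were mostly separate gene by gene. All 3 rbohD libraries were below all 3 WT libraries for 143 members at 0 min, 138 in controls at 60 min and 141 in waterlogged leaves, where the shares of all 12545 genes are 24.8%, 23.7% and 23.7%. In all 3 conditions together this held for 134 members, against 5.99% of the 12545. The rule favours such genes, so these counts describe the members and nothing more is read from them. The 16 remaining members include 5 of the 9 noncoding genes.

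WT leaves at 10 and 30 min entered the rule only through the minimum mean level, but the rbohD libraries set against them here are those the rule chose for being low, so the counts are again a description. The 6 untreated rbohD libraries, at 0 and 60 min, were all below the 6 WT controls at 10 and 30 min for 128 of the 150 genes, against 8.08% of the 12545. The times differ, so this sets levels side by side and is no matched comparison. The median of untreated rbohD minus these WT controls was -0.67 over members and 0.04 over all 12545. It was at or below -0.4 for 135 members, against 5.22% of the 12545, and below 0 for 149.

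**Figure D2:**
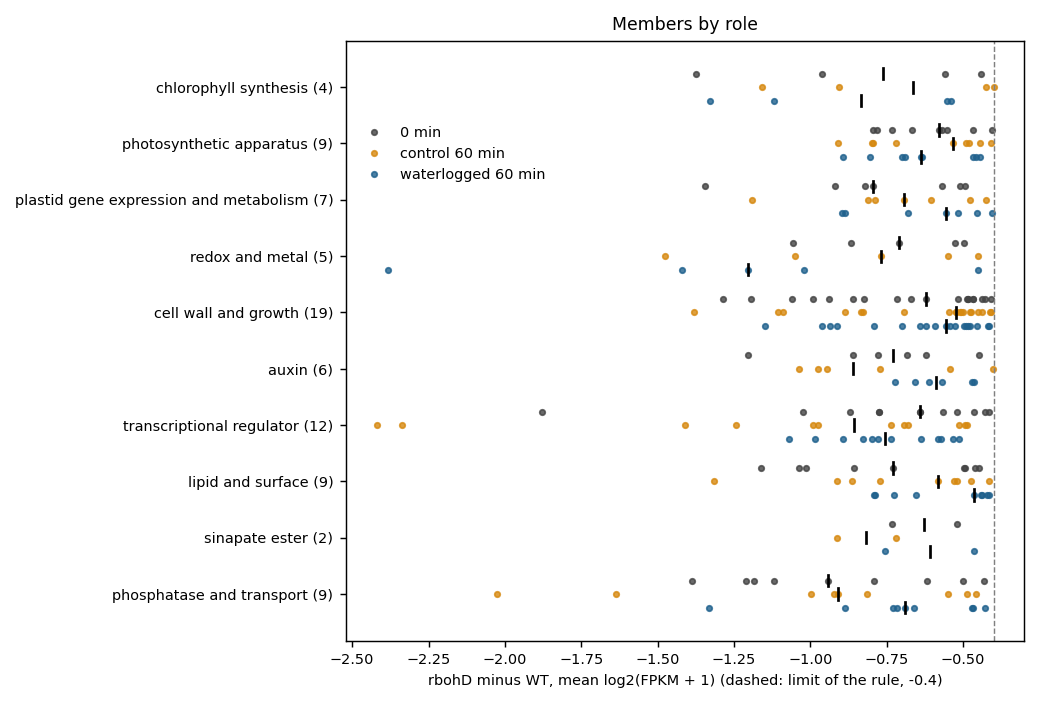
Difference rbohD minus WT in mean log2(FPKM + 1), 1 point per member and condition, for the 82 members placed in 10 roles; black bars are medians and the dashed line is the limit of the rule, -0.4. The transcriptional regulators reach furthest in controls at 60 min, where BBX27 and BT2 stand at -2.34 and -2.42, and NEET is the lowest point in waterlogged leaves at -2.38.

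By role, 82 members could be placed in 10 classes written after the members were known, 59 are protein-coding genes without a class, and 9 are noncoding. Products named for a photosystem, a light-harvesting complex, chlorophyll or protochlorophyllide account for 6 members (4% of the 150) and for 0.59% of the 12545 genes. Products named expansin account for 2 members of 16 expressed, those named glycine-rich for 4 of 36 and those named SAUR-like auxin-responsive for 2 of 26. Such words can miss genes: by symbol the expansins EXP3, EXPB1 and EXPB3 are all members. Ribosomal proteins gave 1 member of 300 expressed, a plastid protein (AT5G24490), and no member came from the 78 heat shock, 58 disease resistance or 16 WRKY products. Proteins described as uncharacterized or hypothetical make up 12% of members and 4.96% of the 12545 genes. These word counts were chosen after the members were seen and carry no test.

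The 4 genes of chlorophyll synthesis cover early and late steps of the pathway. Their median difference was -0.76 at 0 min, -0.66 in controls at 60 min and -0.84 in waterlogged leaves. PORB (AT4G27440, chromosome 4, 13725546 to 13727440), which reduces protochlorophyllide in the light, stood at 46.1, 48.9 and 44.96 FPKM in rbohD at 0 min, against 90.13, 92.5 and 92.7 FPKM in WT. In controls at 60 min PORB stood at 46.9, 48.5 and 44.5 FPKM in rbohD and 105, 103 and 108 FPKM in WT, and in waterlogged leaves at 91.3, 92.8 and 86.03 FPKM in rbohD and 224, 235 and 224 FPKM in WT. The groups were separate in each condition, and waterlogged rbohD leaves overlapped WT leaves at 0 min. PORA, its close paralog best known from seedlings, averaged 2.72 ± 0.576 FPKM in rbohD and 8.59 ± 0.845 FPKM in WT at 0 min (SD, n = 3 here and below), and 16.6 ± 0.6398 against 24.6 ± 2.09 FPKM in waterlogged leaves. How reads shared by the paralogs were counted is not given in the sources used here, and PORB overlaps a gene on the other strand. HEMA1, the glutamyl-tRNA reductase at the entry to tetrapyrrole synthesis, averaged 243 ± 2.88 FPKM in rbohD and 359 ± 4.23 FPKM in WT at 0 min. In waterlogged leaves HEMA1 stood at 144, 139 and 151 FPKM in rbohD and 318, 317 and 313 FPKM in WT, its largest gap (-1.12, against -0.40 in controls). HEME1, a uroporphyrinogen decarboxylase of the same pathway, differed by -0.44, -0.42 and -0.55 at 0 min, in controls and in waterlogged leaves.

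Photosynthetic members were among the most abundant of the 150. PSAD-2 (AT1G03130) and PSAF (AT1G31330), subunits of photosystem I, stood at 739 ± 11.96 and 1993 ± 68.7 FPKM in rbohD at 0 min, against 1282 ± 30.4 and 2978 ± 131 FPKM in WT. LHCB2.3 (AT3G27690), an antenna protein of photosystem II, stood at 1222, 1167 and 1193 FPKM in rbohD at 0 min and 1712, 1755 and 1786 FPKM in WT. The groups did not overlap for any of these genes at 0 min. LHB1B1, another antenna gene, averaged 3150.0 ± 579 FPKM in rbohD and 4303 ± 119.7 FPKM in WT after waterlogging, and shares much of its sequence with its relatives, so its value is uncertain. The other members of this role are the cytochrome b6f subunit petM (AT2G26500), the violaxanthin de-epoxidase NPQ1, the lumen protein TL29, the chloride channel CLC-E and the phylloquinone enzyme AAE14. Over the 9 genes the median difference was -0.58 at 0 min, -0.53 in controls at 60 min and -0.64 in waterlogged leaves.

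LHCB2.3 is the only member of a list of 15 light-harvesting genes, but the rest of the list lay on the same side before waterlogging. All 15 were below 0 at 0 min and in controls at 60 min, with medians of -0.34 and -0.42, and 9 of 15 were below 0 in waterlogged leaves, with a median of -0.09. The summed level of the list was 88369.9 to 97684 FPKM in waterlogged rbohD leaves and 96283 to 100203 FPKM in waterlogged WT leaves. At 0 min it was 68326 to 70648 FPKM in rbohD and 81585 to 84892 FPKM in WT. The limit of -0.4 was met by 2 of the 15 at 0 min, by 8 in controls at 60 min and by LHCB2.3 alone in waterlogged leaves.

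Other plastid members serve gene expression and carbohydrate or lipid metabolism, with median differences of -0.79, -0.69 and -0.55 at 0 min, in controls at 60 min and in waterlogged leaves. PHS1, a plastid starch phosphorylase, averaged 13.3 ± 0.123 FPKM in rbohD at 0 min and 24.3 ± 0.332 FPKM in WT. WCRKC1, an atypical chloroplast thioredoxin, averaged 1.94 ± 0.495 FPKM in rbohD at 0 min and 6.41 ± 0.325 FPKM in WT. The remaining genes of the role are PTAC16, UGP3, which makes the sugar nucleotide for sulfolipid, AT5G24490, AT4G30690 and AT2G34620, and they differed less at 0 min than WCRKC1 did (-1.35).

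Among redox and metal genes the gap was widest after waterlogging, with a median of -1.20 over 5 genes, against -0.71 at 0 min. FSD1 (AT4G25100, chromosome 4, 12884300 to 12887011), the iron superoxide dismutase of the chloroplast, stood at 566, 538 and 559.9 FPKM in rbohD at 0 min and 745, 835 and 821 FPKM in WT. In waterlogged leaves FSD1 stood at 292, 296 and 237 FPKM in rbohD and 729, 730.1 and 743 FPKM in WT, with no overlap. NEET (AT5G51720, chromosome 5, 21009347 to 21010345), an iron-sulfur protein of the organelles, stood at 34.8, 36.4 and 32.3 FPKM in rbohD at 0 min, against 51.99, 72.7 and 68.2 FPKM in WT. In waterlogged leaves NEET stood at 11.9, 10.2 and 4.58 FPKM in rbohD and 43.2, 50.4 and 49.6 FPKM in WT, the lowest difference of any member in that condition (-2.38). NEET's libraries were lowest in waterlogged rbohD and did not overlap those of any other group. The role also holds HMA2, a zinc-exporting ATPase, a peroxidase (AT1G71695) and a copper amine oxidase (AT3G43670). Both FSD1 and NEET carry iron, but the fixed list of 15 expressed iron genes went the other way, with medians of 1.71, 0.89 and 1.78, and NEET was its only member. Of 6 expressed scavenging enzymes FSD1 was the only member.

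**Figure D3:**
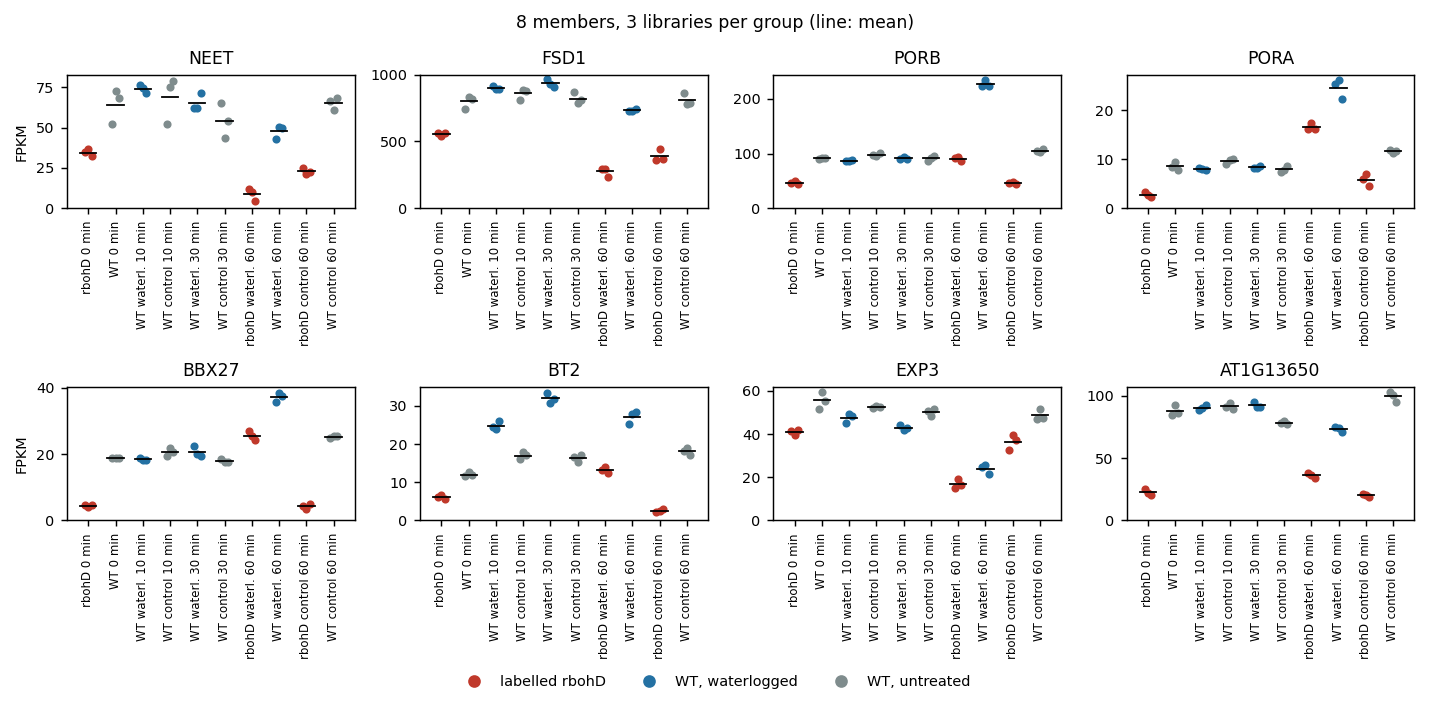
FPKM of 8 members in each of the 30 libraries (points) with the group mean (line), rbohD in red, waterlogged WT in blue and untreated WT in grey. NEET and FSD1 are lowest in waterlogged rbohD leaves, PORB, PORA, BBX27 and BT2 are higher in waterlogged leaves at 60 min than in their controls in both genotypes, EXP3 is lower in both, and AT1G13650 is higher in rbohD and lower in WT.

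Cell wall and growth genes formed the largest role, with 19 members and medians of -0.62, -0.52 and -0.56. EXP3 and EXPB3, expansins that loosen the wall, stood at 41.03 ± 1.42 and 25.1 ± 0.731 FPKM in rbohD at 0 min, against 55.6 ± 3.94 and 39.04 ± 0.5695 FPKM in WT. GASA6, a gibberellin-regulated peptide that promotes growth, stood at 107, 103 and 103 FPKM in rbohD at 0 min, against 260.0, 258 and 249.6 FPKM in WT. ELP, an extensin-like protein, averaged 287 ± 8.03 FPKM in rbohD at 0 min and 471 ± 16.5 FPKM in WT. These genes were separate between the genotypes at 0 min and GASA6 was the lowest of them by mean difference. The role also includes the xyloglucan enzymes XTH8 and XYL1, the galactosidases BGAL10 and AGAL2, a pectin lyase-like gene (AT3G07010), an inhibitor of pectin methylesterase (AT1G14890) and 4 glycine-rich proteins.

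Auxin genes covered transport, response and conjugation. LAX3, an auxin influx carrier, averaged 7.43 ± 0.601 FPKM in rbohD at 0 min and 13.4 ± 0.751 FPKM in WT. DFL1, a GH3 enzyme that conjugates auxin to amino acids, stood at 10.6, 9.32 and 8.18 FPKM in rbohD controls at 60 min and 18.01, 20.3 and 18.5 FPKM in WT controls. ARF6, an auxin response factor, differed by -0.45, -0.54 and -0.61 at 0 min, in controls and in waterlogged leaves. The SAUR genes SAUR22 and AT4G34770 and the dormancy/auxin associated gene AT2G33830 complete the role, whose medians were -0.73, -0.86 and -0.59.

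The 12 transcriptional regulators held the most negative single difference of the 10 roles, that of BT2 in controls at 60 min (-2.42), followed within the role by BBX27. BBX27 (AT1G68190, chromosome 1, 25558794 to 25561248), a B-box zinc finger protein, stood at 4.505, 4.11 and 4.56 FPKM in rbohD at 0 min and 18.7, 18.9 and 18.8 FPKM in WT. In controls at 60 min BBX27 stood at 4.304, 3.46 and 4.900 FPKM in rbohD and 24.7, 25.5 and 25.4 FPKM in WT. In waterlogged leaves it stood at 26.8, 25.4 and 24.2 FPKM in rbohD and 35.8, 38.5 and 37.5 FPKM in WT. The gap of -1.88 and -2.34 in untreated leaves was -0.53 in waterlogged ones. BT2 stood at 2.205, 2.49 and 3.07 FPKM in rbohD controls at 60 min and 18.1, 19.04 and 17.2 FPKM in WT controls, and at 13.2, 13.95 and 12.5 and 25.2, 27.8 and 28.3 FPKM in the waterlogged leaves of rbohD and WT. MYBL2 averaged 21.1 ± 1.27 FPKM in rbohD and 44.00 ± 0.595 FPKM in WT at 0 min, and 24.7 ± 1.22 against 46.6 ± 1.36 FPKM in waterlogged leaves. NAP, a NAC factor known from leaf senescence, TGA4, a bZIP factor, PAR2, a repressor of shade responses, and MAF4 and MAF5, repressors of flowering related to FLC, were also members. MAF4 and MAF5 are neighbours and near copies, so their values are uncertain.

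Lipid, phenylpropanoid and transport genes gave further members. FAR1 (AT5G22500), a fatty acyl reductase that makes alcohols of suberin, averaged 8.42 ± 0.357 FPKM in rbohD at 0 min and 14.6 ± 0.436 FPKM in WT. SNG1, which transfers sinapate from sinapoylglucose to malate, stood at 220.2, 225 and 229.5 FPKM in rbohD at 0 min and 388, 375 and 360.1 FPKM in WT; its neighbour SCPL13 is of the same family. AT5G14120, a transporter of the major facilitator superfamily, averaged 22.7 ± 2.47 FPKM in rbohD controls at 60 min and 95.3 ± 2.49 FPKM in WT controls. This was a difference of -2.03, the lowest of its role. The sulfate transporter SULTR3;5, the vacuolar calcium pump ACA4 and the purple acid phosphatases PAP3 and PAP8 belong here too. PAP3 averaged 22.8 ± 2.295 FPKM in rbohD and 44.7 ± 0.945 FPKM in WT at 0 min.

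AT1G13650 (chromosome 1, 4680290 to 4682382), whose protein is uncharacterized, was the protein-coding gene with the most negative mean difference among those whose genotypes did not overlap in any condition. It stood at 24.96, 22.3 and 20.7 FPKM in rbohD at 0 min and 84.7, 92.4 and 86.6 FPKM in WT. In controls at 60 min it stood at 21.2, 20.5 and 18.6 FPKM in rbohD and 103, 101 and 95.04 FPKM in WT. In waterlogged leaves it stood at 38.2, 36.2 and 34.3 FPKM in rbohD and 74.9, 74.01 and 71.05 FPKM in WT. WT controls at 10 and 30 min, with 91.6 ± 2.54 and 78.5 ± 1.003 FPKM, lay with the other WT libraries.

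Some of the most negative mean differences rest on unstable estimates. AT2G08470, a noncoding gene, had the most negative mean (-2.15), but at 0 min it stood at 88.4 FPKM in 1 WT library and near 0 in the other two, while it was at most 0.0222 FPKM in rbohD. AT1G74385 stood at 25.2 FPKM in that same WT library and at most 0.00418 FPKM in the other two. AT4G28755 lies on the strand opposite AT4G28750, and its rbohD controls at 60 min had 2 libraries at 1573 and 1264 FPKM and 1 near 0. AT1G74385, AT4G28755, AT4G38820, the miRNA precursor ath-MIR834 and the long noncoding AT1G25098 overlapped between the genotypes in every condition, and AT2G08470 and AT2G41178 in 2 of 3. AT3G06655 and ath-MIR834 are each listed at 0 in 1 rbohD library, and a listed 0 can be a failed estimate. Leaving out each of the 18 libraries of the rule in turn kept 98 of the 150 genes under every omission. The 52 others fell outside the rule at least once. They include the 7 genes that overlapped in at least 2 conditions and 5 of the 9 noncoding genes. Most of the 52 are protein-coding, and several are named above for their roles, such as HEMA1, HEME1, LHB1B1, TL29, EXP3, XTH8, LAX3, NAP and TGA4. Of the 150, 49 (32.7%) overlap another gene, against 33.0% of the 12545, and the sources used here do not state whether strand was used.

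The rRNA split was examined through replicate 3 of the waterlogged WT leaves at 60 min, the WT library with rRNA at 5754 FPKM, where the waterlogged rbohD libraries had 4639 to 5290 FPKM. The median difference of that library from the mean of replicates 1 and 2 was -0.02 over members and 0.00 over the 12545 genes. Single members lay further off, such as AT1G74385 at -4.76 and ath-MIR834 at 1.21. Replicate 3 was the lowest of the 3 libraries for 62 members (41.3%), against 34.8% of the 12545, and the highest for 44 (29.3%), against 35%. Waterlogged rbohD minus replicate 3 alone had a median of -0.60 over members, and minus replicates 1 and 2 it had a median of -0.64. All 3 waterlogged rbohD libraries were below replicate 3 for 143 members, against 35.3% of the 12545, and 128 members stayed at or below -0.4, against 6.78%. The rule used these rbohD libraries and the mean of the 3 WT libraries, replicate 3 included, so most of this gap was set by the choice of members and nothing is read from it about rRNA. With a term for high rRNA in the linear model, which rests on this library alone, the medians over members were -0.68, -0.71 and -0.60. The last value repeats the comparison with replicate 3 and is no further result. The values at 0 min and in controls are the earlier differences shifted by how far replicate 3 lay from replicates 1 and 2. With this term 226 genes met the rule, of which 115 are among the 150. EXP3 missed the limit in all 3 conditions with this term, at -0.22, -0.21 and -0.36. HEMA1, ARF6, DFL1, EXPB3, TGA4 and UGP3 are among the members that missed it in at least 1. No WT library at 0 min or among the controls had rRNA in the range of rbohD, so there genotype and rRNA cannot be told apart.

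**Figure D4:**
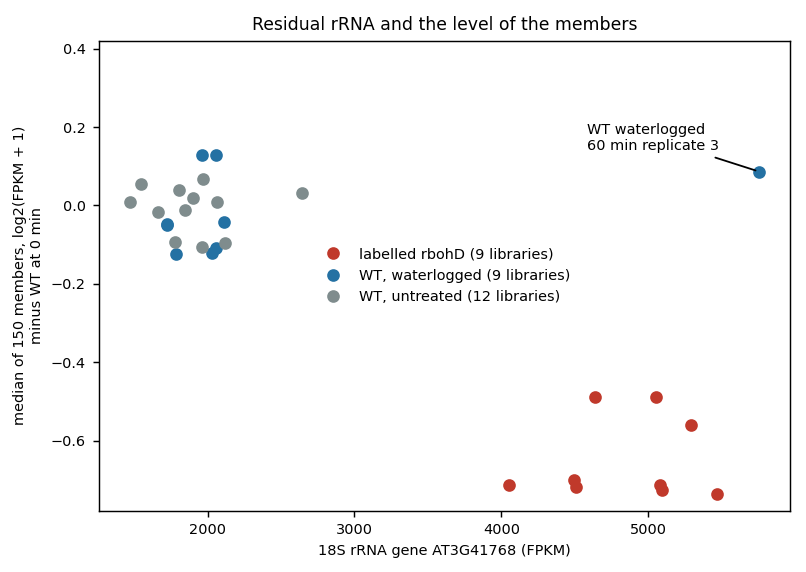
Median over the 150 members of log2(FPKM + 1) minus WT at 0 min (vertical) against FPKM of the 18S rRNA gene AT3G41768 (horizontal), 1 point per library. The 9 rbohD libraries lie between -0.73 and -0.49, and the WT library at 5754 FPKM lies at 0.09, with the other WT libraries.

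Markers of cell types were compared for the same libraries, and their part in the result was not tested. Mesophyll markers (3 of 3 expressed) were abundant in every group, with sums of 18908 to 19825 FPKM in rbohD and 20055 to 21320.0 FPKM in WT at 0 min. In controls at 60 min the mesophyll sum was 22990.4 to 26104 FPKM in rbohD and 21294 to 22096 FPKM in WT, and in waterlogged leaves 24695 to 26580.0 FPKM in rbohD and 21932 to 22544 FPKM in WT. The mesophyll sum was thus lower in rbohD at 0 min and higher at 60 min, but its genes were mixed. Their median differences were -0.23 at 0 min, -0.16 in controls at 60 min and 0.15 in waterlogged leaves. Below 0 were 3, 2 and 1 of the 3 genes in the same order. Xylem markers were lower in rbohD: the sum of IRX3, XCP1 and XCP2, of which 2 reached 5 FPKM, was 34.3 to 36.2 FPKM in rbohD and 61.7 to 66.5 FPKM in WT at 0 min. The xylem sum was 39.9 to 47.4 FPKM in rbohD and 47.6 to 55.5 FPKM in WT in controls at 60 min, and 31.5 to 33.7 and 61.8 to 66.3 FPKM in the waterlogged leaves of rbohD and WT. The median differences of the xylem markers were -0.88, -0.25 and -0.999. Epidermis and trichome markers (4 genes, 2 of them at 5 FPKM) summed to 168 to 174 FPKM in rbohD and 185 to 205 FPKM in WT at 0 min, to 139 to 154 against 163 to 172 FPKM in controls at 60 min, and to 113 to 138 against 165 to 179 FPKM in waterlogged leaves, lower in rbohD each time. Markers of dividing cells (3 genes, 2 of them at 5 FPKM) summed to 8.53 to 9.395 FPKM in waterlogged rbohD leaves and 14.3 to 14.5 FPKM in waterlogged WT leaves. Their sum was lower in rbohD in controls at 60 min too (10.6 to 11.8 against 12.5 to 16.4 FPKM) and overlapped between the genotypes at 0 min. Guard cell markers (5 genes, 3 of them at 5 FPKM) overlapped at 0 min and in waterlogged leaves, and summed to 41.9 to 43.1 FPKM in rbohD controls at 60 min and 39.1 to 39.7 FPKM in WT controls. Phloem markers (3 of 3 expressed) summed to 142 to 143 FPKM in rbohD and 149 to 155 FPKM in WT at 0 min. In rbohD the phloem sum was higher at 60 min. It was 168 to 184 against 150.03 to 158 FPKM in controls and 162.4 to 169.6 against 155 to 161.7 FPKM in waterlogged leaves. The 3 phloem genes were mixed, with median differences of 0.03, 0.27 and -0.01 at 0 min, in controls and in waterlogged leaves. Below 0 were 1, 1 and 2 of the 3 in the same order. None of the cell type markers is a member, and none of the xylem, epidermis, trichome and dividing-cell markers was at 0 in any library. In whole leaves fewer cells of a type and less RNA per cell cannot be told apart.

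Of the other lists, none of which has a member, some had medians on both sides of 0 and some did not. The 12 expressed jasmonate genes had medians of 3.3 at 0 min, -1.89 in controls at 60 min and 1.45 in waterlogged leaves, rbohD minus WT. The 4 expressed genes of a dark and low-sugar list were lower in rbohD in untreated leaves, with medians of -0.33 and -1.76, and near WT after waterlogging, at -0.05. The 10 expressed genes of an early ROS and touch list had medians of 1.29, -1.27 and 0.78 in the same order, and the 12 of a salicylate defence list 0.25, -0.25 and 0.70. The 9 cold and dehydration genes had medians above 0 throughout, of 0.46, 0.56 and 0.58. Medians were also above 0 in each condition for 5 flavonoid genes, at 0.44, 1.72 and 0.80, and for 3 heat shock genes, at 1.21, 1.18 and 0.56. The 14 glucosinolate genes had 0.82, 0.01 and -0.19.

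Whether the 150 genes respond to waterlogging was tested in the leaves of each genotype, with limma on log2(FPKM + 1) over all 17491 genes of at least 1 FPKM and Benjamini-Hochberg adjustment. At 10 and 30 min only WT was sampled, and these libraries entered the rule only through the minimum level. At 10 min 4 members rose (2.67%) and 6 fell (4%), against 4.14% and 0.863% of all tested genes. At 30 min 13 rose (8.67%) and 6 fell (4%), against 7.78% and 4.1%, which is near the background. The median change over members was -0.04 and -0.01 at these times, against -0.01 and -0.02 over all tested genes. At 30 min the balance depended on scaling: quantile normalization gave 11 higher and 12 lower, and scaling to protein-coding totals gave 10 and 10. The 10 calls at 10 min became 4 without waterlogged replicate 2 or 3, 5 without control replicate 3 and 6 without control replicate 2, and without control replicate 1 the members that rose numbered 2. The 19 calls at 30 min became 11 without waterlogged replicate 3 and 12 without control replicate 2, and without control replicate 1 the members that rose numbered 8.

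Among members that passed the test, BT2 had the largest rise at both times. BT2 stood at 24.4, 23.8 and 26.1 FPKM in waterlogged WT leaves at 10 min and 15.99, 17.98 and 17.04 FPKM in their controls, a log2 change of 0.52 (SE 0.08, adjusted p 4.11e-05) by limma. At 30 min it stood at 33.4, 30.7 and 31.9 FPKM in waterlogged leaves and 16.7, 15.2 and 17.05 FPKM in controls, a change of 0.93 (SE 0.08, adjusted p 1.37e-09) by limma. AT3G10020, which encodes a plant protein of no named function here, rose by 0.48 and 0.70 at 10 and 30 min (limma adjusted p 0.00194 and 7.82e-06). NAP rose by 0.39 and 0.74 (adjusted p 0.0321 and 1.5e-05, limma), and the oxygenase gene AT3G60290 by 0.31 and 0.47 (adjusted p 0.0175 and 0.000139, limma). These 4 are all the members that rose at 10 min. FAR1 joined them at 30 min, with 21.4 ± 0.949 FPKM in waterlogged leaves and 14.8 ± 0.572 FPKM in controls, a change of 0.50 (SE 0.06, adjusted p 3.91e-07) by limma.

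Wall genes were among the members that fell early. EXPB3 stood at 35.4, 36.9 and 34.9 FPKM in waterlogged WT leaves at 10 min and 41.3, 42.3 and 42.8 FPKM in their controls, a change of -0.23 (SE 0.05, adjusted p 0.0025) by limma. At 30 min EXPB3 stood at 31.99 ± 2.404 FPKM in waterlogged leaves and 42.3 ± 0.186 FPKM in controls, a change of -0.39 (SE 0.05, adjusted p 1.01e-06) by limma. AT1G14890, the putative inhibitor of pectin methylesterase, fell at both times (-0.37 and -0.37, limma adjusted p 0.0255 and 0.0114), as did AT3G45160, a putative membrane lipoprotein (-0.39 and -0.44, adjusted p 0.00631 and 0.000924). DFL1 fell at 10 min, with a log2 change of -0.30 (limma adjusted p 0.0233), and PORB changed by -0.17 (limma adjusted p 0.015). At 30 min AT3G47675 and the oxygenase gene AT3G46490 fell too, with log2 changes of -0.67 and -0.23 (limma adjusted p 0.00423 and 0.0249).

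At 60 min more members passed the test in both genotypes. The libraries at 60 min are the ones the rule compared between genotypes. A rule that takes genes with low rbohD controls favours a rise from them. The counts and the changes of single genes at 60 min are therefore given as a description. In rbohD 67 members (44.7%) were higher and 27 (18%) lower after waterlogging, against 26.3% and 32.7% of all tested genes. In WT 44 (29.3%) were higher and 19 (12.7%) lower, against 14.7% and 15% of all tested genes. Of the 12545 genes 27.4% were higher and 37.7% lower in rbohD, and 16.2% and 18.3% in WT. The median change was 0.19 over members in rbohD, against -0.05 over all tested genes, and 0.09 in WT, against 0.01. The calls overlapped: 39 members were higher in both genotypes, which is 58.2% of those higher in rbohD and 88.6% of those higher in WT. Over all tested genes 11.5% were higher in both, 43.7% of those higher in rbohD and 78.4% of those higher in WT. Lower in both were 13 members, 48.1% of those lower in rbohD and 68.4% of those lower in WT, where over all tested genes 12% were lower in both, 36.6% and 79.6% of those lower in each. All 3 waterlogged libraries were above their controls in rbohD and below them in WT for 4 members, against 2.29% of the 12545 genes, and the reverse held for 2, against 1.69%. Together these 6 are 4% of members, against 3.98%, the background. The value of rbohD minus WT was higher after waterlogging than in controls for 96 members (64%), against 41.2% of the 12545 genes. The median change was 0.09 and -0.07 in these sets. For members, whose differences are all negative, a higher value is a smaller gap, but for the 12545 genes it need not be. The rule used both differences, so this too is a description.

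**Figure D5:**
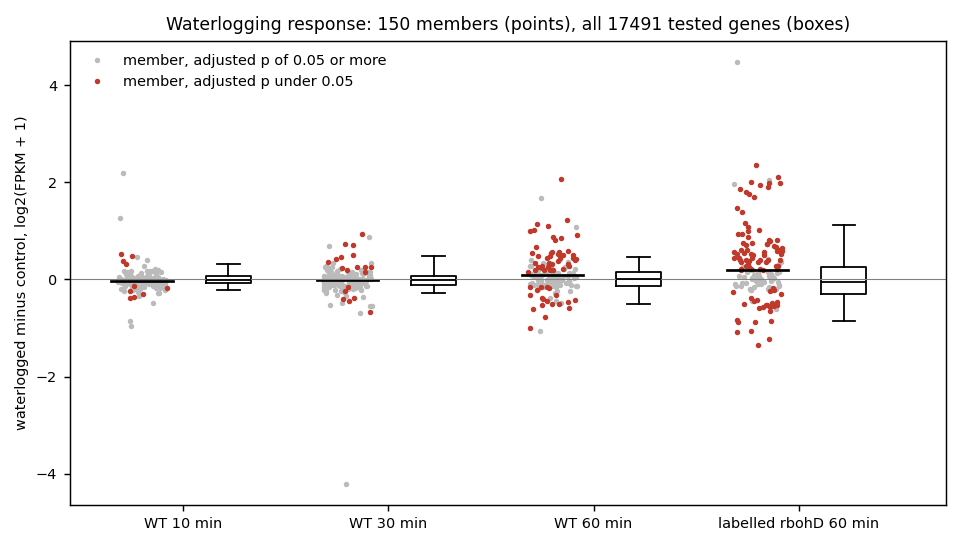
Waterlogged minus control, log2(FPKM + 1), for the 150 members (points, red where limma's adjusted p is under 0.05, bar at the median) and for all 17491 tested genes (boxes, with the quartiles as their ends and whiskers at percentiles 5 and 95). Red points number 10 and 19 at 10 and 30 min, and 63 in WT and 94 in rbohD at 60 min. Over all tested genes 4.14% were higher and 0.863% lower in WT at 10 min, and 7.78% and 4.1% at 30 min. At 60 min these shares were 14.7% and 15% in WT, and 26.3% and 32.7% in rbohD.

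BBX27 rose at 60 min by 2.35 (SE 0.07, adjusted p 1.88e-18) in rbohD and 0.55 (SE 0.07, adjusted p 1.93e-06) in WT by limma. The choice of members by low rbohD values favours such rises in rbohD, and the adjusted p at 60 min does not allow for that choice. FAR1 was among the 5 largest rises in both genotypes. FAR1 stood at 31.6, 30.6 and 33.1 FPKM in waterlogged rbohD leaves and 5.97, 6.76 and 7.17 FPKM in their controls, a change of 2.1 (SE 0.06, adjusted p 2.65e-19) by limma. In WT, FAR1 stood at 41.5, 44.1 and 44.6 FPKM in waterlogged leaves and 17.7, 16.8 and 19.5 FPKM in controls, a change of 1.23 (SE 0.06, adjusted p 6.36e-14) by limma. PORB rose by 0.93 in rbohD and 1.1 in WT, and PORA by 1.39 and 1.02 (limma adjusted p 5.97e-15, 2.5e-15, 5.49e-11 and 5.13e-08). AT2G33830 rose by 1.47 in rbohD and 1.15 in WT (limma adjusted p 3.18e-13 and 1.45e-10). BT2, AT5G14120 and the phosphoesterase gene AT1G25230 rose in rbohD by 1.99, 2.02 and 1.98 (limma adjusted p 1.78e-16, 2.34e-19 and 8.45e-16). AT4G38820 had the largest rise in WT, 2.08 (SE 0.50, adjusted p 0.00248) by limma, but its replicates vary: it stood at 18.9, 2.43 and 22.5 FPKM in waterlogged rbohD leaves.

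Members with the evening element were counted separately. Of these 19, 12 were higher and 3 lower in rbohD at 60 min, and 10 higher and 2 lower in WT. Of the 121 without it, 52 were higher and 24 lower in rbohD, and 34 higher and 17 lower in WT. Over all tested genes 26.3% were higher and 32.7% lower in rbohD, and 14.7% and 15% in WT. No test was made between members with and without the element. The rule used the libraries at 60 min, so these counts are a description.

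EXP3 was among the 5 largest falls in both genotypes at 60 min. EXP3 stood at 14.8, 19.2 and 16.5 FPKM in waterlogged rbohD leaves and 32.6, 39.6 and 37.3 FPKM in their controls, a change of -1.08 (SE 0.08, adjusted p 2.49e-11) by limma. In WT, EXP3 stood at 24.8, 25.5 and 21.7 FPKM in waterlogged leaves and 46.8, 51.6 and 47.6 FPKM in controls, a change of -0.99 (SE 0.08, adjusted p 5.53e-10) by limma. EXPB3 changed by -0.83 in rbohD and by -0.77 in WT (limma adjusted p 3.44e-13 and 1.01e-11). NEET fell in rbohD, with a log2 change of -1.35 (SE 0.21, adjusted p 7e-06) by limma, and its value in WT was -0.45 (SE 0.21, adjusted p 0.117) by limma. AT3G46490, AT2G36885 and AT3G24420 fell in rbohD, with changes of -1.22, -1.06 and -0.87 (limma adjusted p 2.31e-13, 1.97e-07 and 9.2e-13). In WT, AT3G56080, AT1G76240 and AT2G29310 fell, with changes of -0.61, -0.58 and -0.52 (limma adjusted p 6.33e-06, 6.51e-07 and 2.41e-05).

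In position the 150 genes were spread over the nuclear chromosomes, with 41, 21, 31, 28 and 29 on chromosomes 1 to 5 and none in the plastid or mitochondrial genome. Of the 12545 genes, 26.2%, 15.0%, 20.0%, 15.2% and 23.2% lie there. Within 1 Mb of RBOHD lie 229 genes of at least 5 FPKM, of which 2 are members. Members within 10 kb of each other formed 5 pairs: AT1G12080 and ELP, SCPL13 and SNG1, AT3G23080 and AT3G23090, AT4G13575 and AT4G13577, and MAF4 and MAF5. The members were somewhat shorter, with a median length of 2134 bp against 2470 bp for the 12545. LpxC2, AT1G25098 and AT1G25175 lie in a duplicated region of chromosome 1, so reads may be shared between copies there.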

How the data were processed

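The deposited tables hold FPKM per gene with confidence bounds for 30 libraries, per the file headers, so the authors had scaled them to library size and gene length. Per the submitters' processing notes Trim Galore 0.6.7, HISAT2 2.2.1, Cufflinks 2.2.1 and Cuffdiff were used with TAIR10; the annotation and strand use are not given in the sources used here. FPKM are not counts, so no count model was used, and precision was judged from the spread of 3 libraries. Of 32826 rows, 2 repeated identifiers and 2 genes without an OK status were dropped. Locus tags matched the RefSeq table for TAIR10.1 in 99.1% of genes, 99.95% of these with the same boundaries, and gave names, biotypes and promoter sequence. The promoter of 1 further member with the evening element is not reported here.

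The members, lists, roles and sequences searched were chosen with earlier results of these data known. Waterlogged leaves were compared with controls of the same time on log2(FPKM + 1) with limma 3.58.1 in R 4.3.3, for the 17491 genes averaging 1 FPKM or more, all 10 groups in 1 fit, two-sided, with Benjamini-Hochberg adjustment and a threshold of 0.05. The scripts were checked on simulated data. Named were the 25 members of most negative mean difference as space allowed, up to 5 rises and 5 falls per comparison, members of a gene list, the 3 genes nearest either side of the limit, and the targeted and rRNA genes; other names illustrate a role and were chosen after values were seen. Libraries were grouped by title. The alternatives were another pseudocount, filter, limit, scaling or fit, the replicate number as a block, an rRNA term, and each library left out; replicate 3 alone as the waterlogged WT group, and protein-coding members only, were added after seeing the data. Tables and figures were made with numpy 2.4.6, pandas 2.3.3 and matplotlib 3.10.9 in Python 3.11.15.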

Additional observations from a re-analysis of the deposited data

Results flagged for a closer look

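In 6 members all 3 waterlogged libraries at 60 min lay on one side of their controls in rbohD and on the other side in WT. This is 4% of members, against 3.98% of the 12545 genes of at least 5 FPKM, so the count is at the background. The difference between the genotypes' responses was not tested, and the 60 min libraries are those the rule compared. In 4 of the 6 rbohD was higher after waterlogging and WT lower. AT1G13650, an uncharacterized protein, stood at 38.2, 36.2 and 34.3 FPKM in waterlogged rbohD leaves and 21.2, 20.5 and 18.6 FPKM in their controls, a limma log2 change of 0.82 (adjusted p 1.27e-11). In WT it stood at 74.9, 74.01 and 71.05 FPKM in waterlogged leaves and 103, 101 and 95.04 FPKM in controls, a limma change of -0.44 (adjusted p 1.88e-06). AT4G13577 changed by 0.60 in rbohD and -0.42 in WT (limma adjusted p 0.000101 and 0.00768). MLP43, of the major latex protein family, changed by 0.45 in rbohD and -0.15 in WT (limma adjusted p 3.33e-07 and 0.0472). ACA4, a vacuolar calcium pump, had log2 values of 0.25 in rbohD and -0.10 in WT (limma adjusted p 3.8e-05 and 0.108). The other two went the opposite way: AT1G09750, an aspartyl protease, changed by -0.56 in rbohD and 0.32 in WT (limma adjusted p 5.43e-06 and 0.00519), and AT1G12080, described as a vacuolar calcium-binding protein, had values of -0.26 and 0.09 (limma adjusted p 0.000779 and 0.276).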

How the results depend on the processing

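The number of members depended on the limit and on the rRNA term: a limit of -0.5 gave 81 genes and a term for high rRNA 226, and the cause of the latter was not tested. Leaving out 1 library gave 142 to 161. At 30 min in WT the count of falling members was 12 with quantile normalization and 10 with protein-coding totals, against 6. Leaving out 1 library gave 4 to 7 calls at 10 min (2 to 3 higher, 2 to 5 lower) and 11 to 15 at 30 min (8 to 11 higher, 3 to 6 lower); fewer samples enter those fits. In WT at 60 min the range was 53 to 57 and in rbohD 89 to 97. Replicate numbers did not pair the libraries: the highest correlation of same-numbered libraries was 0.0598, and not every library correlated best with its own number. With the replicate number as a block the calls were 10 at 10 min, 17 at 30 min, 59 in WT at 60 min and 94 in rbohD. Of 556 single-gene values under the alternatives, 521 kept direction and side of the threshold, 35 missed the threshold and 0 reversed. Low and overlapping genes are the least precise, since depth is known only from the confidence bounds.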
